A study of Mus musculus with 25 samples.

Results

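The genes of the proteasome were examined in H3K27ac HiChIP libraries of mouse CD8+ T cells. They were taken as all protein-coding genes of the RefSeq annotation of GRCm38.p6 whose symbol begins with Psm, then one letter from a to g and a digit, without the immunoproteasome genes Psmb8 and Psmb9. This rule found 49 of 21887 protein-coding genes. Most encode subunits, but the label does not hold for all of them: 7 are assembly chaperones, and 2 match by symbol alone. Psmc3ip encodes a meiotic recombination factor and Psme3ip1 a protein that binds the Psme3 product.

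The proteasome degrades proteins that carry ubiquitin. Its 20S core is a barrel of alpha rings, which gate the entry, around beta rings, which hold the proteolytic sites. The 19S cap binds ubiquitin chains, and its ring of ATPases unfolds the substrate and feeds it into the core. Other caps, among them the 11S activators encoded by Psme1, Psme2 and Psme3, open the core without ATP. In lymphocytes the proteasome also cuts proteins into peptides for MHC class I, and T cells that grow after activation need it to turn over cell cycle regulators.

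The cells came from spleens of C57BL/6J mice, were activated for 2 days and were rested for 4 h. They then received either IL-2 or no treatment (control). Cells were wild type (WT) or carried 1 of 2 CRISPR deletions at Il2ra, the gene of the IL-2 receptor alpha chain: an intron deletion (Intron in the titles) or an upstream deletion (Upstream). The labels describe both deletion genotypes only as mutants. Where the deletions lie, and how much IL-2 was given for how long, the sources used here do not say. Each genotype and treatment had 1 library, so 6 libraries entered every comparison. No sources used here say whether the cells of a library came from 1 mouse or several. The 19 ChIP-seq samples of the series were not analysed here.

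HiChIP ligates DNA ends that are neighbours in the nucleus, pulls down the fragments that carry a chromatin mark, here the active mark H3K27ac, and sequences both ends. The tables list pairs of 1 kb bins with at least 20 contacts (read pairs) that lie at least 5 kb apart, and give each bin's coverage, its number of reads. A gene was measured through every listed pair with an anchor bin on the gene or within 1 kb of it. In every listed pair both bins carry a mark of 1 in the columns that FitHiChIP, a loop caller, uses for peaks. Which peaks these are, and whether a significance filter was applied as well, the sources used here do not say. A pair that is not listed was therefore not read as 0: it may hold up to 19 contacts or, if another filter left it out, more. The libraries listed between 38879 pairs (intron deletion, control) and 94922 pairs (WT, IL-2), with 1314137 to 3596995 contacts. At Il2ra itself 187 and 286 pairs were listed in the WT control and IL-2 libraries, 12 and 39 in intron-deleted cells, and 69 and 110 in upstream-deleted cells. All 7 annotated CD8 T cell markers (Cd8a, Cd8b1, Cd3d, Cd3e, Cd3g, Cd247 and Lck) had listed bins in all 6 libraries. Of the markers of other cell types, Cd79a, Ikzf2, Spi1 and Cd68 also had listed bins in all 6 libraries. Cd4, Zbtb7b, Klrb1c and Cd79b had them in some. Foxp3, Ncr1, Klra8, Ms4a1, Pax5, Lyz2, Csf1r, Itgam and 3 erythroid genes were listed in none.

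A listed pair was found for 31 of the 49 genes (63.3%), against 7848 of all 21887 protein-coding genes (35.9%). For 16 genes (32.7%) at least 1 pair was listed in every library, against 19.1% of all genes. The median span of the 49 genes was 12.3 kb, against 17.2 kb over all genes. The annotated start was known for 41 of them, and its bin was listed in some library for 25 (61.0%), against 28.2% of the 17492 genes with a known start. In all 6 libraries the start bin was listed for 15 (36.6%), against 14.98%. The median scaled coverage of those 15 start bins was 3130 reads per library, close to the 2944 reads of the 2621 start bins of all genes listed in every library. These shares are descriptions, with no test of the difference. Listing depends on contact counts and on the peak marks, so a gene without a listed pair may still be acetylated and transcribed.

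Each role held both well-connected and unlisted genes. Of the 8 alpha genes, Psma1, Psma2, Psma3, Psma6 and Psma7 had pairs in all libraries, while Psma4, Psma5 and Psma8, the testis form, had none in any. Of the 9 beta genes, only Psmb3 and Psmb10 had pairs in all libraries. Psmb10 encodes the immunoproteasome's trypsin-like site. The 3 constitutive catalytic genes Psmb5, Psmb6 and Psmb7, and Psmb1, were listed in part of the libraries, and Psmb2, Psmb4 and the thymic form Psmb11 in none. Among the 6 ATPase genes Psmc5 and Psmc6 were listed throughout, Psmc1, Psmc2 and Psmc3 in part, and Psmc4 nowhere. Among the 11 non-ATPase genes of the cap, the scaffold genes Psmd1 and Psmd2 and the lid gene Psmd8 were listed throughout. Psmd4, a ubiquitin receptor, Psmd12 and Psmd13 were listed in part. Psmd3, Psmd6, Psmd7, Psmd11 and the deubiquitinase gene Psmd14 were not listed. The 3 genes of the 11S activators were listed throughout, while Psme4, the retrogene Psme2b and the inhibitor gene Psmf1 were not. Psmg2 was the 1 assembly gene listed throughout. Psmg3, Psmg4 and Psmd5 were listed in part, Psmg1, Psmd9 and Psmd10 in none, and Psmc3ip and Psme3ip1 in part.

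The number of listed genes broadly followed the size of the library's list. It was 26 in the WT control and 29 in the WT IL-2 library, 20 and 24 in intron-deleted cells, and 21 and 23 in upstream-deleted cells. The genes' pairs numbered 201, 263, 86, 198, 136 and 133 in the same order. Psma3 had the most pairs over all libraries (41), followed by Psma6, Psme2 and Psmg2 (30 each) and Psmb10 (27). The count of listed pairs thus cannot be compared between libraries without regard to depth, and the tests below use pairs that all libraries list. That choice has a limit of its own. A pair that is unlisted in any library is left out, so the tests can miss losses and gains of such pairs. Psmb10 had 17 pairs in the WT control and 2 in the intron-deletion control library, and its test rests on 2 shared pairs.

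Contacts summed over the pairs listed in all libraries and scaled for library size were highest for Psme2, Psmc5 and Psma3 and lowest for Psmc6. Such sums grow with the number of listed bins and were not scaled for gene length. Promoter sequences are shown for the gene with the most contacts in each core class (Psma3, Psmb3, Psmc5 and Psmd1), for Psme2, and for Psme3, the gene whose contacts changed with IL-2. Each is the 250 bases before the annotated start in RefSeq (GRCm38.p6), 5′ to 3′ on the gene's strand: Psma3 at chr12:70974373-70974622 (plus strand), Psmb3 at chr11:97703184-97703433 (plus), Psmc5 at chr11:106255935-106256184 (plus), Psmd1 at chr1:86064369-86064618 (plus), Psme2 at chr14:55591102-55591351 (minus) and Psme3 at chr11:101315963-101316212 (plus). Capitals mark matches, on either strand, to 1 of 6 motifs: TGACNNNGC (core of the antioxidant response element, which the proteasome regulators Nfe2l1 and Nfe2l2 bind), CCAAT (NF-Y), TTCNNNGAA (STAT), CACGTG (E-box), CCGGAA (ETS) and GGGCGG (GC box). No motif holds another.
Psma3: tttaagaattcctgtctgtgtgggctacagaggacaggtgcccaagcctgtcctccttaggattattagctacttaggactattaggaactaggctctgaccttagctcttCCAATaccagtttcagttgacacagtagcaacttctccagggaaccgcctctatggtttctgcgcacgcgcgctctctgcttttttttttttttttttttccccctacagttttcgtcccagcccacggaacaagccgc
Psmb3: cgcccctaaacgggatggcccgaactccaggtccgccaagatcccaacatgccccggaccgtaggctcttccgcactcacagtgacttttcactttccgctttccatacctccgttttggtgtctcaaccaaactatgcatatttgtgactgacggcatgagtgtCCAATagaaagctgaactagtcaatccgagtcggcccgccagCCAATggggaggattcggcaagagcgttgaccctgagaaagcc
Psmc5: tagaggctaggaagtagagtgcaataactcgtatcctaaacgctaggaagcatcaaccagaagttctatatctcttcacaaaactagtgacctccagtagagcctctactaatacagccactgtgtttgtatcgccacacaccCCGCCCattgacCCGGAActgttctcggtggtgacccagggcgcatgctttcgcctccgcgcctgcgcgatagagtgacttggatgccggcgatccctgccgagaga
Psmd1: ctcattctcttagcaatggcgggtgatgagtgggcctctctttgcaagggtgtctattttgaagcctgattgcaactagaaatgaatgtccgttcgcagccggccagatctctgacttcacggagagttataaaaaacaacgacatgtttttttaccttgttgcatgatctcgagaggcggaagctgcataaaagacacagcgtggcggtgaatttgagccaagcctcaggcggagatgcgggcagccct
Psme2: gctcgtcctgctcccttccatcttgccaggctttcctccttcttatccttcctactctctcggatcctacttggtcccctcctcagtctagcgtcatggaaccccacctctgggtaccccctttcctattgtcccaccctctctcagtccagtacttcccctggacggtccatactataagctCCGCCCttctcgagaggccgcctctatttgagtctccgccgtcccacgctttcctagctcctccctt
Psme3: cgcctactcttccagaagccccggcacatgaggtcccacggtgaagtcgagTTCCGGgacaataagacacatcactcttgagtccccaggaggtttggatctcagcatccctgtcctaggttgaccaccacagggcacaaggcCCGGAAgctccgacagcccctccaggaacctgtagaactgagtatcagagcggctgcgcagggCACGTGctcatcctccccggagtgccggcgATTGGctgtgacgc

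Psma3 held 1 CCAAT match and Psmb3 held 2, the nearer beginning 43 bases before the start. Psmc5 held an ETS match and, on the opposite strand, a GC box match. Psme2 held a GC box match on the opposite strand and Psmd1 none of the 6 motifs. Psme3 held 4 matches: 2 ETS (the farther on the opposite strand), 1 E-box and, also on the opposite strand, 1 CCAAT beginning 14 bases before the start. No STAT match lay in any of the 6 windows, which says only that these letters are not there. Over the 41 proteasome genes with a known start, ETS matches were found for 18 (43.9%), against 17.0% of 17492 genes and 14.998% of 21263 promoters. GC boxes were found for 22 (53.7%), against 45.8% of genes and 42.6% of promoters. CCAAT was found for 15 (36.6%), against 39.5% and 35.4%. The E-box was found for 5 (12.2%), against 7.61% and 6.63%, and the antioxidant response core for 5 (12.2%: Psmb5, Psmb6, Psmc6, Psmd9 and Psmd12), against 11.99% and 10.4%. The STAT motif was found for Psmg1 alone (2.44%), against 7.65% and 6.58%. Matches are descriptions of sequence, not of bound factors.

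Where the genes' contacts went was largely local. The 58 gene and pair combinations listed in all libraries (56 distinct pairs) spanned a median of 16.5 kb and at most 139 kb, against a median of 12 kb over all 28033 such pairs. The partner bin held the start of another gene in 17 pairs and lay inside another gene in 19. It held another gene's end in 9, lay within the same proteasome gene in 8 and held no protein-coding gene in 5. Starts were known for 17492 of the 21887 genes. An end, here and below, is a gene boundary where no start was placed, and it may be an unknown start. The 17 may thus be too low. The annotated start bins of Psma2, Psma7, Psmc5, Psmd10, Psmd13, Psme2 and Psme3ip1 (7 of 41, 17.1%) also held another gene's start, against 7.73% of all genes. For these genes contacts and coverage cannot be assigned to one of the 2 genes.

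Among the alpha genes, Psma3 encodes a subunit of the outer ring. It had 3 of its shared pairs between its start region and bins 5 to 7 kb upstream. The annotated span of Psma3 begins before the start placed here, so these bins lie in that span or within 1 kb of it. The pair of chr12:70968001-70969000 with chr12:70975001-70976000 held 109 contacts in the WT control, 131 in the WT IL-2, 66 and 102 in the intron-deletion control and IL-2, and 95 and 96 in the upstream-deletion control and IL-2 libraries. That upstream bin also paired with the start of Actr10 (31 kb) and with the body of Arid4a (48 kb). Psma6 paired with Nfkbia, the gene of the NF-kappaB inhibitor IkappaB-alpha, over 93 and 94 kb. The bin with the Nfkbia start held 59, 43, 46, 48, 43 and 36 contacts with Psma6 in the order above. Psma1 paired with an end of Pde3b, which encodes a phosphodiesterase, over 139 kb, with 43, 41, 28, 37, 37 and 38 contacts. All of these long pairs were listed in every library.

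In the beta class, Psmb10 had 2 shared pairs, both with the kinase gene Pskh1 at 13 and 18 kb. It had 27 pairs over all libraries, of which 17 were listed in the WT control and 2 in the intron-deletion control. Psmb3 paired with Mllt6 and Pcgf2 on one side and with the ends of Pip4k2b and Cwc25 on the other. The catalytic genes left less. Psmb5 had 5 pairs in the WT IL-2 library and none in the WT control, the counts lying between 20 and 32, just at the listing limit. Psmb8 and Psmb9, which the rule leaves out, had larger sums, also not scaled for length: over shared pairs Psmb9 had 3228, 3321, 2269, 3000, 3008 and 2664 contacts and Psmb8 had 2824, 2906, 1728, 2449, 2412 and 2334. Psmb3 had 222, 294, 142, 166, 156 and 215.

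Psmc5 encodes an ATPase of the cap and shares its start bin with the rRNA methyltransferase gene Ftsj3. Its strongest pair, and that with the highest mean of all 56 distinct shared pairs (109 contacts), joined the start bin to the bin with an end of Smarcd2, a gene of the SWI/SNF remodeller, 16 kb away. It held 108, 126, 99, 127, 87 and 106 contacts. Other shared pairs reached the common start bin of Ccdc47 and Ddx42 at 39 and 40 kb. Psmc6 had 1 shared pair, with the start of Ero1a. Psmd1, the scaffold of the cap's base, had 1 shared pair, with an intergenic bin 5 kb upstream, which held 80, 101, 61, 91, 62 and 97 contacts. Psmd2 paired with Eif4g1, a translation initiation gene, at 21 and 22 kb, and Psmd8 with the start of Ggn at 10 kb. The assembly gene Psmg2 had 3 shared pairs, of which 2 reached Seh1l, a nucleoporin gene, over 133 and 134 kb.

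Pairs between proteasome genes came from 1 locus alone. Psme1 and Psme2, whose products form 1 ring, lie close together, with Emc9 between them, and were joined by 10 distinct pairs, 2 of them listed in all libraries. The pair of the Psme1 start bin with the start bin of Psme2 and Rnf31 held 52, 64, 45, 60, 62 and 60 contacts, a narrow range in libraries of different depth. Both genes also contacted the start region of Irf9, a factor of interferon signalling. The Psme2 start bin held 63, 75, 59, 75, 61 and 55 contacts with one Irf9 bin 13 kb away. Summed over shared pairs, Psme2 had 424, 511, 356, 471, 428 and 400 contacts.

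**Figure D1:**
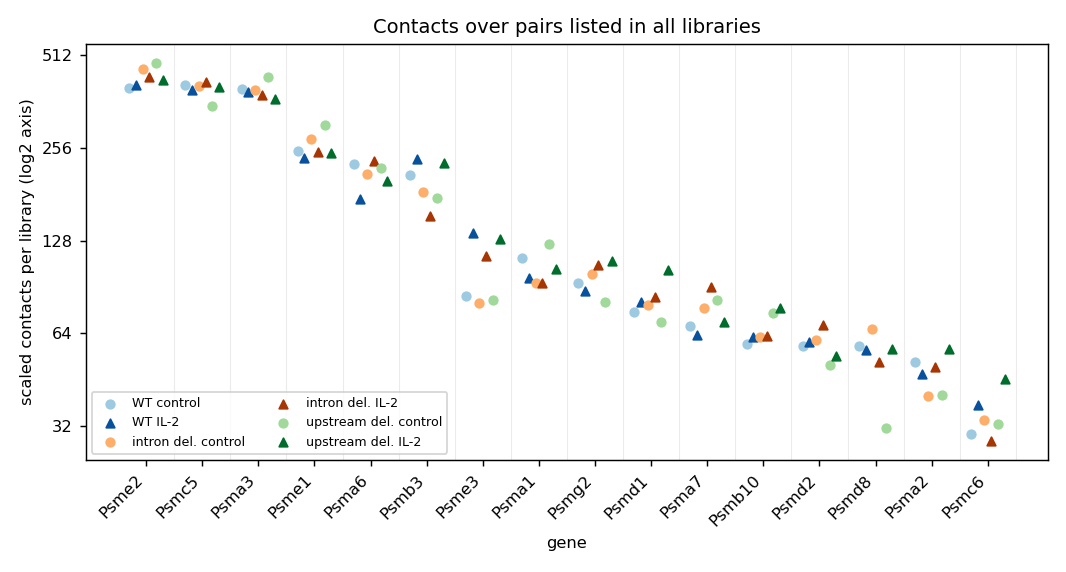
Contacts summed over shared pairs and scaled by library (log2 axis) for the 16 proteasome genes with such pairs, ordered by their mean; each point is 1 library, circles are controls and triangles IL-2. Levels ran from about 435 for Psme2 to 34.7 for Psmc6, and Psme3 was the gene whose triangles stood farthest above its circles.

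The first comparison asked whether contacts of these genes differed with IL-2. One gene rose: Psme3, which encodes the nuclear 11S activator. Its shared-pair sum was 90 in the WT control and 169 in the WT IL-2 library, 62 and 123 in intron-deleted cells, and 73 and 122 in upstream-deleted cells. After scaling, the 3 IL-2 values (135, 114 and 129) all lay above the 3 control values (84.8, 80.2 and 82.2). The fitted change was 1.53-fold (log2 0.62, SE 0.12, edgeR quasi-likelihood test over 3508 features with genotype as a term, adjusted p = 0.0118). Within single genotypes the scaled ratio was 1.59 in WT (95% exact binomial interval 1.23 to 2.08, counting error only), 1.42 in intron-deleted cells (1.04 to 1.96) and 1.57 in upstream-deleted cells (1.17 to 2.13). The intervals overlap, and with 1 library per cell a difference in response between genotypes could not be tested. Of all features tested, 5.59% were called in this comparison and 3.25% as higher, so 1 of 16 is near the background.

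The signal at Psme3 came from 2 pairs of its start bin (chr11:101316001-101317000), and the same 2 pairs make up the feature for its neighbour Becn1, the autophagy gene at the other end. No known start was placed in either Becn1 bin, so the Becn1 end named next may be its start. The pair with the bin at a Becn1 end, 14 kb away (chr11:101302001-101303000), held 46 and 98 contacts in WT control and IL-2, 39 and 70 in intron-deleted cells, and 34 and 82 in upstream-deleted cells. It was higher with IL-2 in every genotype (log2 0.82, SE 0.17, adjusted p = 3.73e-04 by edgeR over 28033 pairs), the 1 call among 56 proteasome pairs, where 3.3% of all pairs were called and 2.56% as higher. The second pair, 15 kb away in the Becn1 body, held 44 and 71, 23 and 53, and 39 and 40 contacts. Its counts with IL-2 and without differed by 1 contact in the upstream deletion. The call on the first pair was lost without the WT control, WT IL-2, upstream-deletion control or upstream-deletion IL-2 library (log2 0.63 to 0.78, adjusted p 0.157 to 0.256), and with DESeq2, which called no pair at all (log2 0.81).

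The WT IL-2 library, which has the longest list, listed 14 pairs at Psme3 against 3 in the WT control. The other libraries listed 2 to 4. The third pair of the WT control joined Psme3 to the start of Ifi35, with 23 contacts there and 30 in the WT IL-2 library. The partners listed in the WT IL-2 but not in the WT control library were bins at Ezh1, Vps25, Wnk4, Cntd1, Becn1 and Rpl27 and 1 bin without a gene, with 20 to 30 contacts each. As an illustration and not a bound, with every pair not listed set to 19 contacts the scaled IL-2 to control ratio over all 14 pairs was 1.21 in WT, 0.877 in intron-deleted and 1.09 in upstream-deleted cells. At 0 contacts the ratios were 3.44, 1.91 and 1.57. With unlisted pairs at 19 contacts the fitted change was 0.19 on the log2 scale (adjusted p = 0.176 by edgeR). Leaving out the WT control, WT IL-2 or upstream-deletion IL-2 library kept the log2 change at 0.58 to 0.60 and ended the call (adjusted p 0.381 to 0.560), in fits that called none of the 3508 features.

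**Figure D2:**
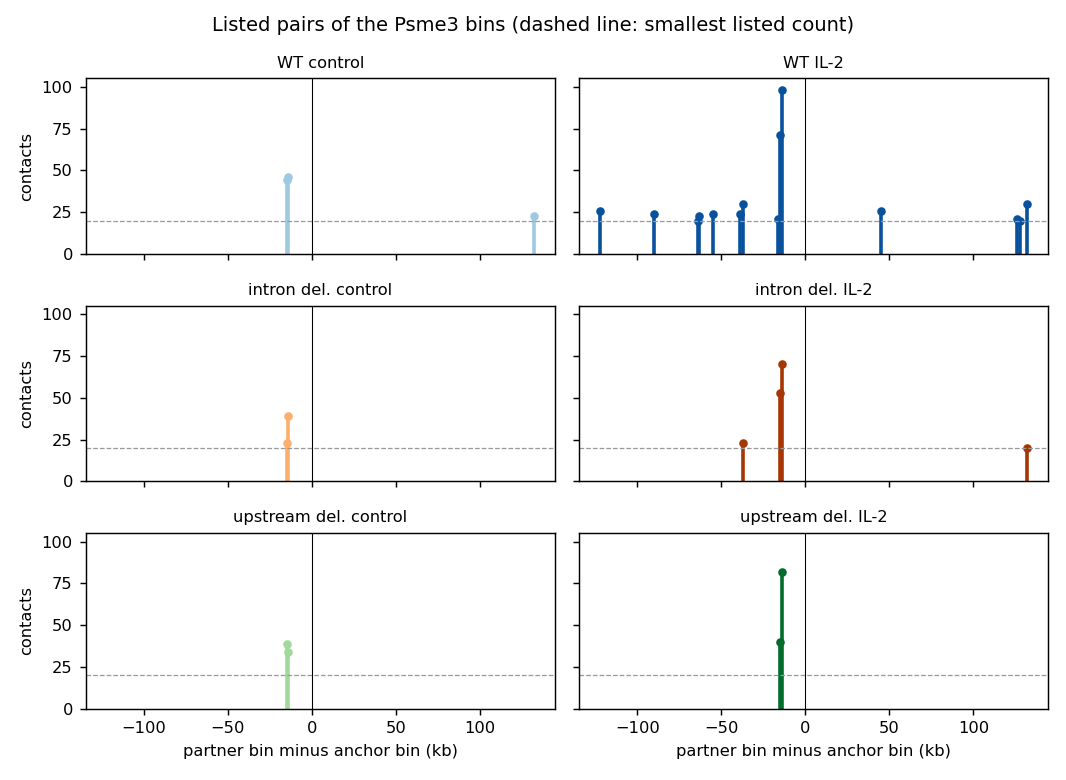
Listed pairs of the Psme3 bins in each library: distance from the anchor bin to the partner bin in kb (x) and unscaled contacts (y); the dashed line is the smallest listed count (20). The tallest lines are the 2 pairs with Becn1 at 14 and 15 kb, and most other lines appear in the WT IL-2 library.

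Of the other 15 genes none was called with IL-2. Without the intron-deletion control library Psmb3 (log2 0.25, adjusted p = 0.0401) and Psma6 (-0.27, adjusted p = 0.0341) also passed, where 24.3% of all features were called. Psmd1 also had all 3 IL-2 values (80.7, 84.1 and 103 scaled contacts) above its 3 control values (75.4, 78.9 and 69.8), with a log2 difference of 0.25 (SE 0.14, adjusted p = 0.331). Psma3 and Psme1 had all IL-2 values below all control values. The log2 differences were -0.11 (SE 0.07, adjusted p = 0.431) for Psma3 and -0.17 (SE 0.08, adjusted p = 0.254) for Psme1, by edgeR. Non-overlap in these directions occurred for 7.55% and 6.78% of all features, and 2 of 16 genes fell in each. Over the 16 genes the log2 difference ranged from -0.17 (Psma1) to 0.62 (Psme3), with 10 positive and 6 negative and a median of 0.07, against -0.00 over all features. Among the leading genes of other classes, Psmc5 was at 0.06 (SE 0.07), Psme2 at -0.08 (SE 0.07), Psmb3 at 0.12 (SE 0.11) and Psmg2 at 0.14 (SE 0.13). The quartiles over all features were -0.12 and 0.12.

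Coverage of the genes' bins, a second readout of H3K27ac in the same libraries, was tested for 18 genes, among them Psmg4 and Psmc3ip, which share bins but no pair across libraries. No feature of 4157 was called with IL-2 by edgeR (0% called), while 1659 features and 10 of the 18 genes had an unadjusted p under 0.05. DESeq2 called 739 features (17.8%) and 3 of the genes. The Psme3 start bin held 6127 and 10227 reads in WT control and IL-2, 4256 and 6598 in intron-deleted cells, and 4299 and 6816 in upstream-deleted cells. After scaling its 3 IL-2 values (7952, 6253 and 7372) lay above its 3 control values (5569, 5822 and 4761), with a log2 difference of 0.42 (SE 0.10, adjusted p = 0.0749). The scaled values of Psmb3 were 5657, 4497 and 5276 with IL-2 and 4652, 4177 and 4194 without, in the order WT, intron and upstream deletion (log2 0.24, SE 0.05, adjusted p = 0.0749). Those of Psme2 were 4596, 5007 and 4611 with IL-2 and 5065, 5339 and 5231 without (log2 -0.14, SE 0.04, adjusted p = 0.0749), so that these groups did not overlap. In 6 of the 18 genes (Psma7, Psmc5, Psmd1, Psmd8, Psme3 and Psmg4) all IL-2 values lay above all control values, and in Psme2 alone all lay below, against 10.3% and 7.51% of all features.

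Direction of coverage was shared across genotypes for most genes. In 9 of 18 the scaled value was higher with IL-2 in each genotype (Psma2, Psma7, Psmb3, Psmc3ip, Psmc5, Psmd1, Psmd8, Psme3 and Psmg4), against 32.7% of all features. In 6 it was lower in each (Psma1, Psma3, Psma6, Psmb10, Psme1 and Psme2), against 31.8%. A shared direction is not a shared size. At Psme3, Psmb3, Psmc5 and Psmg4 the scaled values rose least in intron-deleted cells. For Psmc5 they went from 7758 to 8035 there, against 7369 to 8849 in WT and 6972 to 8484 in upstream-deleted cells. At Psma2 they rose least in upstream-deleted cells. The model fits a common IL-2 effect, and a difference in size between genotypes was not tested. Psmb8 and Psmb9, left out by the rule, had log2 differences of -0.09 (SE 0.04) and -0.12 (SE 0.05), neither called. Without the control or the IL-2 library of the intron deletion, 13 of the 18 genes were called (7 higher and 6 lower), where 61.9% of all features were called in either fit.

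**Figure D3:**
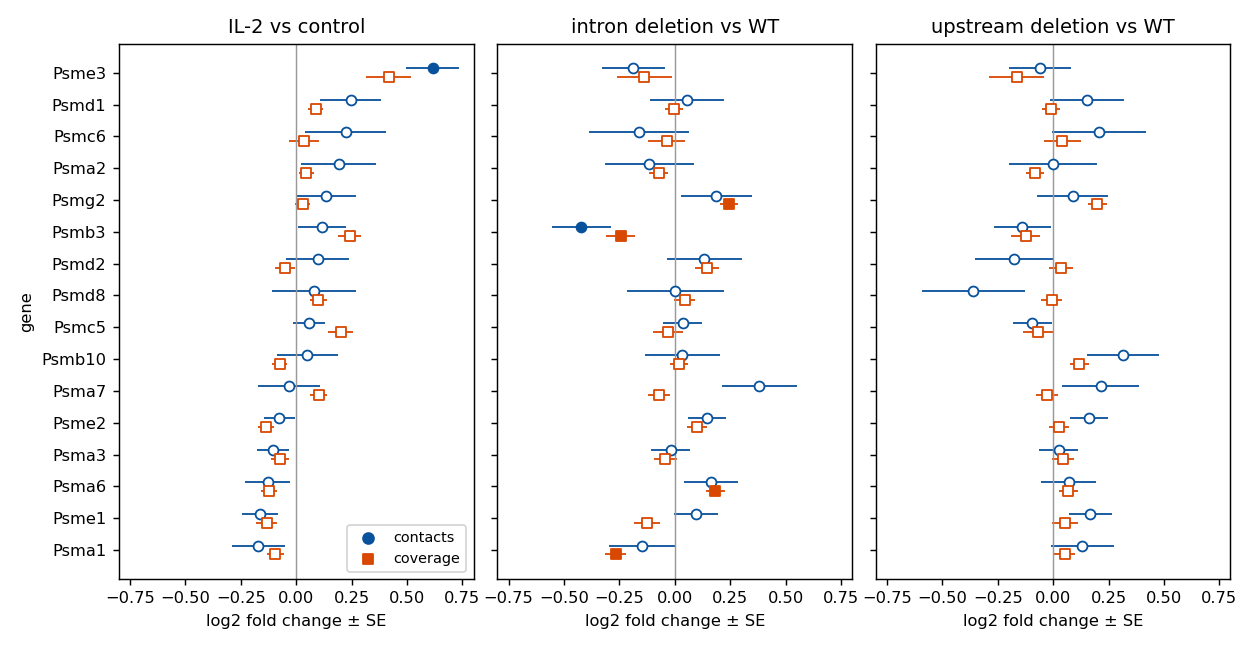
Fitted log2 fold change with its standard error for contacts (circles) and coverage (squares) of the 16 genes with shared pairs, for IL-2 against control, intron deletion against WT and upstream deletion against WT; filled symbols passed an adjusted p of 0.05. Filled symbols are Psme3 with IL-2, and Psmb3, Psmg2, Psma6 and Psma1 in the intron deletion.

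In the second comparison, intron deletion against WT, 1 of the 16 genes was called on contacts. Psmb3, which encodes a beta-ring subunit without a proteolytic site, had 222 and 294 contacts in the WT control and IL-2 libraries and 142 and 166 in those of the intron deletion. Scaled values were 209 and 235 in WT and 184 and 153 in intron-deleted cells, with 176 and 228 in upstream-deleted cells. It fell by 0.42 on the log2 scale (SE 0.13, edgeR adjusted p = 0.0381). The background is high here: 17.3% of features were called and 8.32% as lower. Without the intron-deletion IL-2 library the difference was -0.12 (adjusted p = 0.674), and the call was also lost without the WT control (-0.46, 0.166), WT IL-2 (-0.37, 0.394) or upstream-deletion IL-2 library (-0.42, 0.0745). The call was lost as well with DESeq2 (-0.39, 0.334), with a mean of at least 100 contacts (-0.40, 0.0651) and with gene ends only (-0.34, 0.109). Without the intron-deletion control library 3 of 16 genes were called, where 29.1% of all features were. Within treatments the scaled ratio to WT was 0.878 without IL-2 (95% exact binomial interval 0.706 to 1.09) and 0.653 with IL-2 (0.537 to 0.793). The feature is shared with Pcgf2, a Polycomb gene whose span lies beside the Psmb3 start.

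Of 56 proteasome pairs 2 were called as lower in the intron deletion, both at Psmb3, where 11.3% of all pairs were called and 5.03% as lower. The pair of its start bin (chr11:97703001-97704000) with the Pcgf2 body 5 kb away held 60 and 57 contacts in WT, 23 and 34 in intron-deleted cells, and 25 and 40 in upstream-deleted cells (log2 -0.76, SE 0.24, edgeR adjusted p = 0.0244). The pair of the bin before the start with the Mllt6 body 18 kb away held 33 and 49, 20 and 20, and 20 and 29 (log2 -0.76, SE 0.24, adjusted p = 0.0465). Counts of 20 are the smallest a listed pair can hold. The first call was lost without either WT or either intron-deletion library (log2 -0.47 to -1.12, adjusted p 0.0532 to 0.439). The second was lost without any library but the intron-deletion control (-0.25 to -0.89, 0.0524 to 0.844). Both missed the threshold with pairs listed in any library (adjusted p 0.0587 and 0.0882), and DESeq2 gave neither an adjusted p (log2 -0.77 and -0.70). Pairs of the same start bin toward Pip4k2b and Cwc25 did not pass the test, and the one with Pip4k2b at 41 kb held 26 and 54 contacts in WT and 28 and 35 in intron-deleted cells, so that the WT control was its lowest value.

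**Figure D4:**
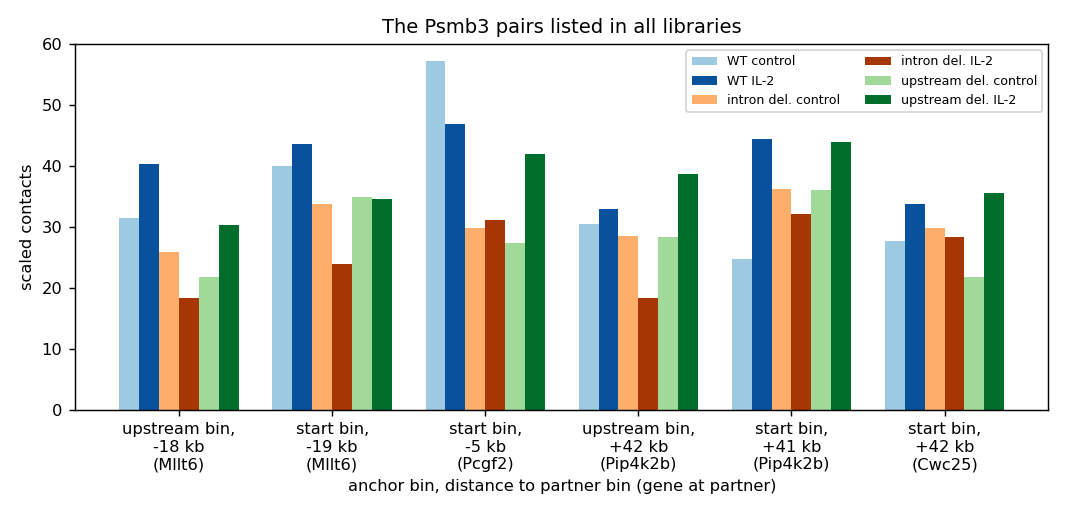
Scaled contacts (y, from 0) of the 6 shared pairs of Psmb3, grouped by pair with the anchor bin, the signed distance to the partner bin and the gene there; each bar is 1 library. WT bars are the tallest for the pairs with Mllt6 and Pcgf2, and the pairs on the other side show no such order.

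Coverage in the intron deletion was called for 4 of 18 genes, 2 in each direction, where 40.1% of 4157 features were called. The 1 shared bin of Psmg2 holds an end of that gene and an end of its neighbour Cep76, so the 2 genes form 1 feature and the value cannot be assigned to either. It held 8555 and 10432 reads in WT against 6922 and 9882 in intron-deleted cells. After scaling these were 7775 and 8112 against 9469 and 9365, a rise of 0.25 on the log2 scale (SE 0.04, edgeR adjusted p = 0.0095). Psma6 rose by 0.18 (SE 0.04, adjusted p = 0.0240), with scaled values of 6096 and 5629 in WT and 6851 and 6451 in the deletion. Psma1 changed by -0.27 (SE 0.05, adjusted p = 0.0110), with 5433 and 5090 against 4417 and 4323. Psmb3 changed by -0.24 (SE 0.06, adjusted p = 0.0325), with 4652 and 5657 against 4177 and 4497. The WT and deletion values of Psmg2, Psma6, Psma1 and Psmb3 did not overlap. The calls rest on these same values, and the share of all features without overlap was not counted, so this adds no support. A share of 4 in 18 lies below the background share. All 4 calls were lost when either WT library was left out (adjusted p 0.139 to 0.280) and with bins listed in at least 4 libraries (0.107 to 0.425). Without the intron-deletion control library 9 of 18 genes were called, where 65.6% of all features were.

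Marker genes moved between the same libraries. Coverage was called as higher in the intron deletion for 4 of the 7 CD8 T cell markers, and for 857 of all 4157 features. These were Cd8a (by 0.68), Cd8b1 (by 0.52), Lck (by 0.25) and Cd247 (by 0.20 on the log2 scale). Cd3d (0.05), Cd3e (0.06) and Cd3g (0.04) were not called. For the 7 markers together, sums are given next. Over their 86 bins listed in all libraries the summed scaled coverage was 142126 to 158943 in WT, 181491 to 182926 in intron-deleted and 144796 to 166939 in upstream-deleted cells. Of the B cell markers Cd79a was higher (0.69), Cd79b had a listed bin in 2 libraries, and Ms4a1 and Pax5 in none. The 3 bins of Cd79a listed in all libraries summed to 5400 to 6004 in WT, 9156 to 9174 in intron-deleted and 6300 to 7658 in upstream-deleted cells. Of the 5 myeloid markers Spi1 was higher (0.51) and Cd68 lower (-0.31), and Lyz2, Csf1r and Itgam were listed in none, with sums over 4 shared bins of 1765 to 1813 in WT and 1940 to 1955 in the intron deletion. Of the 4 CD4 and regulatory T cell markers Foxp3 was not listed, and only 1 bin, of Ikzf2, was listed in all libraries, where it was higher (0.21; 2120 and 2223 reads in WT against 2624 and 2403 for the deletion). Over every listed bin, whose number differs between libraries, this list went the other way, with 6439 and 7008 reads in WT against 2893 and 4847 for the deletion. Zbtb7b had 1880 and 1970 reads in WT against no listed bin and 714 reads for the deletion. Ikzf2 had 4297 and 4433 reads against 2624 and 3240. Cd4 was not lower, with 261 and 606 reads in WT against 269 and 894 for the deletion. The part of cell composition in the genotype differences was not tested. In bulk libraries, more cells of a type cannot be told apart from more signal per cell.

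In the third comparison, upstream deletion against WT, no proteasome gene was called. On contacts 0 of 16 genes passed, with 0.513% of features called by edgeR. An unadjusted p under 0.05 was found for 0 of them, against 435 of 3508 features. DESeq2 also called 0 of the 12 genes for which it gave an adjusted p. Differences ranged from -0.36 (Psmd8, SE 0.23) to 0.32 (Psmb10, SE 0.16) on the log2 scale. The shared pair of Psmd8 held 62 and 71 contacts in WT, 51 and 56 in intron-deleted cells, and 28 and 54 in upstream-deleted cells, where the control library was the low one. On coverage 0 of 18 genes passed, with 0.12% of features called, and 3 had an unadjusted p under 0.05, against 1000 of 4157 features. Among pairs 0 of 56 passed, with 0.0785% called, and 4 had an unadjusted p under 0.05, against 2294 of all 28033 pairs. Without the control or the IL-2 library of the intron deletion 5 of 18 genes were called on coverage, where 45.3% of all features were called in either fit.

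The wider pathway was represented by 31 annotated genes outside the rule: the immunoproteasome pair, assembly and accessory factors, ubiquitin genes, shuttles and the regulators Nfe2l1, Nfe2l2, Ddi2 and Ngly1. On contacts 11 features were measured. None was called with IL-2 or in the upstream deletion, and 1 was called in the intron deletion: Ubb, a polyubiquitin gene, had 233 and 295 contacts in WT, 126 and 164 in intron-deleted cells and 205 and 213 in upstream-deleted cells (log2 -0.54, SE 0.11, edgeR adjusted p = 0.0032). Over all features 17.3% were called in this comparison and 8.32% as lower. The median log2 difference of the 11 was -0.01 with IL-2, -0.14 for the intron deletion and -0.02 for the upstream deletion, against -0.00, -0.02 and 0.00 over all features. On coverage, 13 features were measured and 3 were lower in the intron deletion: Ubb (-0.41), Ngly1 (-0.20), which encodes the enzyme that strips glycans from Nfe2l1, and Ubqln4 with Lamtor2 (-0.30), against 40.1% of all features called and 19.5% called as lower. Nfe2l2, the oxidative stress regulator of proteasome genes, had 1052, 1236, 765, 1188, 850 and 965 contacts and was not called in any comparison.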

How the data were processed

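The sources are 6 tables of H3K27ac HiChIP in CD8+ T cells. Reads were handled with CASAVA, Bowtie2 2.2.6 and HiC-Pro on mm10 (GRCm38), as the submitters' processing notes list them. FitHiChIP, a loop caller, is named with the tables and matches their layout, in a version that the sources used here do not give. Contact counts per pair of 1 kb bins and coverage counts per bin were used as deposited by the authors, without normalization. Deposited columns for p-values and q-values were empty, and the bias columns were not used. In each table no pair had under 20 contacts or lay under 5 kb apart, and in every pair both bins carry the peak mark of the FitHiChIP layout. Whether a peak set per library or a significance filter also shaped the lists, the sources used here do not say.

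Genes, with starts where given, came from RefSeq tables of GRCm38.p6, and mitochondrial genes were left out. For each gene, contacts were summed over pairs listed in all 6 libraries with an anchor on its span extended by 1 kb, and coverage over bins listed in all 6. Genes with identical pairs formed 1 feature, named by all of them. Scaled values are counts divided by TMM-adjusted library size relative to the mean. Each measure was fitted over all features with edgeR 4.0.16 (R 4.3.3; TMM, glmQLFit, glmQLFTest) on genotype plus treatment, which leaves 2 residual degrees of freedom, with Benjamini-Hochberg adjustment and a threshold of 0.05. With 1 library in each genotype and treatment, the error comes from how far the 6 libraries depart from additive effects, pooled over features. Nothing in the labels ties libraries to separate animals or cultures, so p-values measure only the spread between these libraries, which may be technical. The table names carry the number of a replicate, and the labels none. Alternatives were DESeq2 1.42.0, its size factors in edgeR, other count limits (a mean of 30 for pairs and 100 for genes), pairs listed in any library with the missing ones at 19, bins listed in at least 4 libraries, gene ends only, and leaving out each library. A fit without 1 library has 1 residual degree of freedom. The library left alone in its genotype then informs neither the IL-2 effect nor the difference between the other genotypes. For these, leaving out either library of a genotype rests on the same other libraries. Exact binomial intervals cover counting error only. Ratios with unlisted pairs set to 0 or 19 contacts carry no error estimate.

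Members and lists were chosen with earlier results of these data known. Named with full values were genes past the threshold in any comparison, the gene with the most contacts in each class, the 5 pairs with the highest mean and pairs past the threshold. Psmd1, Psma3 and Psme1 (groups that did not overlap), Psmd8 and the coverage of Psme2 were chosen after their values were seen, as were the partner genes described. A marker gene of the lists is not reported here. Scripts used Python with pandas and scipy.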

Additional observations from a re-analysis of the deposited data

How the results depend on the processing

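Counts below are proteasome genes or pairs past the adjusted threshold. For contacts with IL-2 the count was 1 (196 of all features). It was 0 (114 of all) with pairs listed in any library and 0 to 3 (0 to 854 of all) when each library was left out. DESeq2 called 37 features, and gave no adjusted p for any proteasome gene. For contacts in the intron deletion the count was 1 (606 of all). It was 0 with DESeq2 (195 of all), with the mean limit (509) and with gene ends only (335), and 0 to 3 without single libraries (85 to 1021). For coverage the count with IL-2 was 0, 3 with DESeq2 and 0 to 13 without single libraries (0 to 2575 of all). In the intron deletion it was 4, 0 with bins listed in at least 4 libraries (97 of all) and 0 to 9 without single libraries (193 to 2726). In the upstream deletion it was 0 and 0 to 5 (5 of all, and up to 1885). For pairs with IL-2 the count was 1 (924 of all), 0 with DESeq2 (0), 2 with pairs listed in any library (603) and 0 to 1 without single libraries. For pairs in the intron deletion it was 2 (3166 of all), 0 of the 18 to which DESeq2 gave an adjusted p (119 of all), neither called pair among them, 1 with pairs listed in any library, 1 with the mean limit and 0 to 2 without single libraries. The causes of these differences were not tested. Fits that leave out a library also hold fewer samples. The Psme3 rise with IL-2 kept its sign in all alternatives that gave a value.

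Of the uncalled contact differences (log2) with IL-2, those of Psma1, Psma2, Psma3, Psmc6, Psmd1, Psmd2, Psme1, Psme2 and Psmg2 kept their sign in all alternatives that gave a value. Others changed sign in some. With IL-2 these ranged, without single libraries, from -0.27 to 0.0040 for Psma6, -0.17 to 0.065 for Psma7, -0.010 to 0.26 for Psmb3, -0.0090 to 0.12 for Psmc5 and -0.18 to 0.30 for Psmd8. In the intron deletion the ranges were -0.075 to 0.042 for Psma3, -0.055 to 0.12 for Psmc5, -0.076 to 0.20 for Psmd1 and -0.0045 to 0.34 for Psmg2, and in the upstream deletion -0.082 to 0.12 for Psma3, -0.35 to 0.028 for Psmb3, -0.11 to 0.34 for Psmd1 and -0.16 to 0.28 for Psmg2. With pairs listed in any library Psmb10 was at -0.018 with IL-2, Psmc5 at -0.086 in the intron deletion, and Psma3 at -0.0040 and Psme2 at -0.010 in the upstream deletion. The mean limit put Psma3 at 0.0015 in the intron deletion, and gene ends only put Psmc5 at 0.0016 in the upstream deletion. The model compares IL-2 and control libraries within genotypes. Beyond that, no paired analysis was possible because each genotype and treatment had 1 library and the labels give no replicate numbers.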
